A study of Homo sapiens with 82 samples.

Results

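In HT29 cells, a human colorectal adenocarcinoma line, 200 of the 51838 genes of the count tables rose between 24 and 48 h in vehicle-treated cultures and were lower at 48 h with either of 2 liver X receptor (LXR) agonists. The members were chosen by measured values, as group means of CPM (a gene's count over the library total, multiplied by 1000000). A member had a mean of at least 2 CPM in DMSO at 48 h, and this mean was at least 2 times the DMSO mean at 24 h, the GW3965 mean at 48 h and the T0901317 mean at 48 h. Its rosiglitazone mean at 48 h stayed below 1.5 times the DMSO mean. These limits held for 226 genes, and 26 of them were left out by symbol, most of them immediate early genes such as EGR1, FOSB, JUNB and ATF3, secreted factors such as IL8, AREG and EREG, and solute carriers. The values of these contrasts are therefore a description, and tests below are read only from the drug-treated libraries at 24 h, which entered no step of the choice.

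Cells had been treated with the carrier DMSO, with 10 μM GW3965, with 10 μM T0901317 or with 10 μM rosiglitazone for 24 or 48 h, with 4 RNA-seq libraries in each of the 8 groups. Both GW3965 and T0901317 activate LXRs, and rosiglitazone activates the peroxisome proliferator-activated receptor gamma (PPARG). According to the methods, the cells were grown without phenol red and with charcoal-treated serum before treatment, the drugs were dissolved in DMSO, and each treatment was done in quadruplicate. All libraries come from a single cell line, and neither labels nor methods say whether the 4 replicates were independent cultures of different days or passages, so p-values measure the spread between these libraries. Library totals ran from 21044798 to 51332656 counts. All 12 epithelial markers were above 0 in every library, from 7574 to 10757 CPM for the keratin KRT8 down to 0.641 to 4.04 for CDX1. Above 0 in every library were also 3 of 9 fibroblast markers (COL1A1, at 2.35 to 8.66 CPM, LUM and ACTA2), 4 of 8 leukocyte markers (LYZ, CD68, CD14 and ITGAM) and 1 of 5 endothelial markers (TEK), while PTPRC was listed at 0 in 25, CD3E in 31, PDGFRA in 31, COL3A1 in 28 and KDR in 31 of the 32. The fibroblast list summed to 4.35 to 11.1 CPM and the endothelial list to 0.497 to 2.41. The summed level of 8 leukocyte markers was 482 to 511 CPM in DMSO, 562 to 617 under GW3965, 739 to 818 under T0901317 and 407 to 478 under rosiglitazone at 48 h, and LYZ, at 396 to 798 CPM over all libraries, made up most of it. The 13 protein-coding mitochondrial genes summed to 18505 to 27446 CPM in DMSO, 27954 to 32724 under GW3965, 25689 to 37535 under T0901317 and 23691 to 27519 under rosiglitazone at 48 h. The part of these in the results was not tested.

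Of the 200 members, 13 are on a list of integrated stress response genes. In this pathway, amino acid shortage, misfolded protein, lack of heme or viral RNA lead to phosphorylation of the initiation factor eIF2, which lowers general protein synthesis and favours translation of the transcription factor ATF4. ATF4, with partners of the C/EBP family, then raises genes of amino acid synthesis and transport, tRNA charging, redox balance and, when stress lasts, cell death. Other members include feedback inhibitors of growth factor signalling, proteins of focal adhesions and the actin cytoskeleton, and the glucose-responsive pair TXNIP and ARRDC4. LXRs are sterol-activated receptors that raise genes of cholesterol export and fatty acid synthesis, such as ABCA1 and SREBF1.

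Upstream sequence is shown for members that were lower with rosiglitazone than with both LXR agonists at 24 h and that hold the letters TGATGNAA, the pattern of the C/EBP-ATF response element, a composite site known to be bound by ATF4 with C/EBP proteins. Of the 200 members, 159 matched a RefSeq gene and 124 had a promoter in the RefSeq table used (GRCh38.p14, not the build of the counts), in which the 250 bases before the annotated start were searched on both strands. These letters were found in 8 of these 124 and in 3.19% of all 27305 promoters. They stood in 5 of the 28 promoters of that set, namely CHAC1 (chr15:40953221-40953470, plus strand), ASNS (chr7:97872409-97872658, minus strand), FUT1 (chr19:48755359-48755608, minus strand), PRSS1 (chr7:142749222-142749471, plus strand) and NLRP3 (chr1:247415923-247416172, plus strand). Each sequence runs 5′ to 3′ on the strand of its gene up to the base before the annotated start, and capitals mark the match to TGATGNAA.
CHAC1: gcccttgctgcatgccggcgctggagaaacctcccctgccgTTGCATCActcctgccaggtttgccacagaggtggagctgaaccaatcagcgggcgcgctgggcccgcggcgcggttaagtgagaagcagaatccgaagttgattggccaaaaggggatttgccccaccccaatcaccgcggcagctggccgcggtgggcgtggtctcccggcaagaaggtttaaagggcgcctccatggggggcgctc
ASNS: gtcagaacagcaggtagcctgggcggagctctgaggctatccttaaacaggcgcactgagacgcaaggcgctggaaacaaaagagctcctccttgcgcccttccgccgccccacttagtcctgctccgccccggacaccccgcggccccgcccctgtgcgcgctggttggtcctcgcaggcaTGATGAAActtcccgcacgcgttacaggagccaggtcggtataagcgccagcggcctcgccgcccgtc
FUT1: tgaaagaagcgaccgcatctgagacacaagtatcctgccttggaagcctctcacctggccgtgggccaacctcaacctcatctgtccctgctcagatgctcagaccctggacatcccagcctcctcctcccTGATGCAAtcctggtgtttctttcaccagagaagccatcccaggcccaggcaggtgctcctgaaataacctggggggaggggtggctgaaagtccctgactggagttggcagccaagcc
PRSS1: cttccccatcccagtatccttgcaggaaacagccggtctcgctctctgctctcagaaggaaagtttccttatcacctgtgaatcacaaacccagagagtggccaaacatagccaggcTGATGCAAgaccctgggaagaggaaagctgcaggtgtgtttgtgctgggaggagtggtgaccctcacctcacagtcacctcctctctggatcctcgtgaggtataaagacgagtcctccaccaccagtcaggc
NLRP3: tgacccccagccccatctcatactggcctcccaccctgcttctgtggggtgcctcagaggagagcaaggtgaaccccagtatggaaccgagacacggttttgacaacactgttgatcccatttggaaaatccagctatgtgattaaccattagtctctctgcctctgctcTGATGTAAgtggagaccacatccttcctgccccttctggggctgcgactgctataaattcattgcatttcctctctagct

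Against DMSO at 24 h, the log2 difference under GW3965 was 2.52 for CHAC1, 1.59 for ASNS, 0.66 for FUT1, 2.28 for PRSS1 and -0.62 for NLRP3. In CHAC1 the match lay 202 to 209 bases before the start and read on the minus strand of the gene, and in ASNS it lay 61 to 68 bases before it. Among the 12 members on the integrated stress response list with a promoter in the table, only CHAC1 and ASNS held these letters in the window. The other letters searched were TGANTCA (AP1), found in 10 member promoters and in 6.60% of all promoters, TGACGTCA (CRE), found in 4 and in 1.77%, and CACGTG (E-box), found in 8 and in 6.49%. Each motif was counted on its own, and none of the 4 contains another. A match is a description of letters and was not tested as a site. PPP1R15A, whose product lets protein synthesis resume after eIF2 phosphorylation, is shown for its CRE (chr19:48872171-48872420, plus strand), and ARRDC4, an arrestin-like regulator of glucose uptake, for its E-box (chr15:97960453-97960702, plus strand), each in capitals. The promoters of ARRDC4 and PRSS1 also hold TGANTCA, which is not in capitals.
PPP1R15A: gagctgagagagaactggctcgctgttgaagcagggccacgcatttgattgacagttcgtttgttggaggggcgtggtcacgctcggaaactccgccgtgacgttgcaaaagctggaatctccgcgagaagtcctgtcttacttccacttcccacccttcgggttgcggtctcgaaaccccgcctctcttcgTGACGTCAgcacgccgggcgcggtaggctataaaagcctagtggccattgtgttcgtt
ARRDC4: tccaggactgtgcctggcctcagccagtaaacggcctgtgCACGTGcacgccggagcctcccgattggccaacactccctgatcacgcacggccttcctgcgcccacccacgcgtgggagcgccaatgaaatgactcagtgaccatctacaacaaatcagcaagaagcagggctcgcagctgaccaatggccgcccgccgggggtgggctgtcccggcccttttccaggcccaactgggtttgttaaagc

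Summed over all 200 members, the level was 5094 ± 53.3 CPM in DMSO (mean ± SD, n = 4), 5900 ± 135 under GW3965, 5872 ± 85.1 under T0901317 and 5002 ± 59.7 under rosiglitazone at 24 h. At 48 h it was 21186 ± 866 CPM in DMSO, 7736 ± 696 under GW3965, 7554 ± 692 under T0901317 and 22275 ± 1609 under rosiglitazone. At 24 h every library of either LXR agonist lay above every DMSO and rosiglitazone library, and at 48 h every one lay below them. The rule itself requires lower agonist means than in DMSO at 48 h. The median ratio of the 48 h to the 24 h mean was 3.89 in DMSO, 1.31 under GW3965, 1.33 under T0901317 and 4.32 under rosiglitazone, against 1.03, 1.02, 1.08 and 0.959 over the genes with at least 2 CPM in DMSO at 48 h. With GW3965, 29 members still at least doubled and 31 were lower at 48 h than at 24 h, and with T0901317 these counts were 32 and 36. With rosiglitazone, 193 at least doubled. In the edgeR fit of all 32 libraries all 200 members were higher at 48 h than at 24 h in DMSO, where a call required an adjusted p (Benjamini-Hochberg) below 0.01 together with a change of 1.5 times or more, and 10.9% of all genes tested were. Each time point came as its own count table, so hours and table cannot be told apart.

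**Figure D1:**
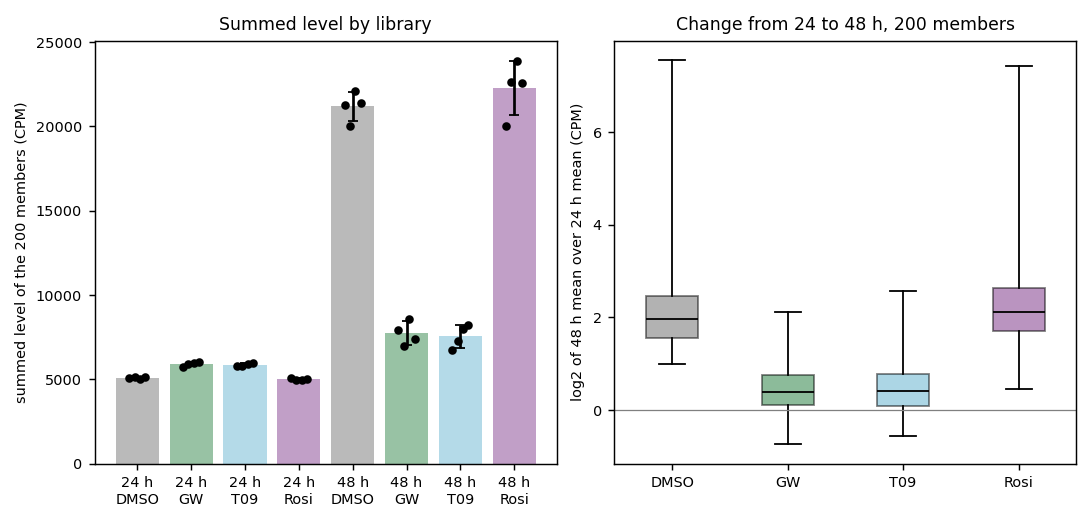
Left, summed level of the 200 members in CPM for each of the 8 groups (DMSO, GW3965 as GW, T0901317 as T09 and rosiglitazone as Rosi, at 24 and 48 h), with bars for means, error bars for SD and points for the 4 libraries. Right, log2 of the 48 h over the 24 h group mean for each treatment, with boxes for quartiles and median and whiskers to the extremes. The DMSO and rosiglitazone boxes sit near 2 (medians of 3.89 and 4.32 as ratios). Those of both LXR agonists sit lower but above 0 (medians of 1.31 and 1.33 as ratios).

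At 48 h all 200 members were called lower with GW3965 and all 200 under T0901317, beside 7.78% and 7.28% of all genes, and nothing is read from these counts because the rule used the same contrasts. The DMSO mean exceeded the GW3965 mean by a median of 2.66 times and the T0901317 mean by a median of 2.57 times. The cutoffs ran through a continuous range of values. HSPA9, at 2.01 times the GW3965 mean, was just inside with RP11-227H15.4 (2.01) and IL1RAP (2.02), and VEGFA (1.98), PCK2 (1.97) and a clone-named gene (1.95) were just outside. For T0901317, AC114546.1 (2.00), UHRF1BP1 (2.00) and IDI2 (2.01) were inside, and PARD6B (1.99), ZNF699 (1.99) and EPC2 (1.98) were outside. For the rise in DMSO, THAP1 (2.00), SIPA1L2 (2.03) and HSPA9 (2.04) were inside, and CCDC59 (1.99), MKI67IP (1.97) and SERTAD2 (1.96) were outside. For the floor in CPM, SLIT1 (2.20), CCDC48 (2.38) and IDI2 (2.55) were inside, and AC104650.2 (1.90), WISP3 (1.86) and CCL20 (1.80) were outside. For the rosiglitazone ratio, AKNA (1.46), MAFF (1.45) and C4orf32 (1.44) were inside, and BCL3 (1.55), UNC5B (1.55) and FAM59A (1.57) were outside.

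Of 12 gene lists, the integrated stress response list held the most members, 13 of its 27 genes. The list of AP1 and ERK output genes held 7 of 49 (EPHA2, GDF15, KRT17, MAFF, SPRY4, TNFRSF12A and TRIB1), the list of NFKB output and cytokine genes 3 of 26 (IL32, PTGS2 and RELB), the squamous and barrier list 1 of 35 (CLDN1), and the TGF-beta and BMP list 1 of 18 (HES1). No member was on the lists of hypoxia and glycolysis (24 genes), enterocyte and colonocyte (25), goblet and secretory (22), Wnt and stem cell (22), direct LXR target (13), cholesterol synthesis (17) or DNA replication genes (20). The immediate early genes that the rule leaves out by symbol are not counted in these lists.

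The 13 stress response members differ in function. The endoplasmic reticulum genes of the list, HSPA5, HERPUD1, DNAJB9, XBP1 and SDF2L1, are not members. CHAC1 encodes an enzyme that degrades glutathione. Its level in the 4 DMSO libraries at 24 h was 4.05, 4.88, 5.36 and 5.36 CPM, with GW3965 22.8, 27.9, 28.3 and 30.4, with T0901317 23.4, 24.4, 26.6 and 26.6 and with rosiglitazone 2.73, 2.76, 3.25 and 3.42. At 48 h it was 162, 180.4, 181 and 182 CPM in DMSO, 53.0, 62.9, 74.4 and 75.2 under GW3965, 53.0, 58.3, 64.2 and 68.5 under T0901317 and 189, 208, 209.8 and 216 under rosiglitazone. The LXR agonist libraries were thus the highest at 24 h and the lowest at 48 h, with no overlap with DMSO at either time. Agonist means below DMSO at 48 h are required by the rule. The difference at 24 h between rosiglitazone and GW3965 was -3.13 (SE 0.12) on the log2 scale (adjusted p = 5.14e-13) and between rosiglitazone and T0901317 -3.01 (SE 0.12) (adjusted p = 1.21e-12).

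TRIB3, a pseudokinase that restrains ATF4 and AKT signalling, was at 84.3, 91.7, 92.4 and 95.5 CPM in DMSO, 179.9, 218, 221 and 244 under GW3965, 176, 177, 177 and 179 under T0901317 and 60.1, 61.4, 61.5 and 63.0 under rosiglitazone at 24 h. At 48 h its 4 libraries were at 909.5, 975, 988 and 993 CPM in DMSO, 343, 375, 446 and 486 under GW3965, 256, 276, 334 and 365 under T0901317 and 1017, 1055, 1058 and 1144 under rosiglitazone. The order of the treatments reversed as for CHAC1, where the rule sets the agonist means below DMSO at 48 h. The rosiglitazone libraries, the lowest of all at 24 h, were above every DMSO library at 48 h. At 24 h rosiglitazone was lower than GW3965, with a log2 difference of -1.77 (SE 0.09) (adjusted p = 2.98e-11).

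ASNS, the asparagine synthetase, was at 29.8, 31.4, 32.5 and 35.5 CPM in DMSO, 88.0, 93.1, 97.2 and 98.2 under GW3965, 89.8, 91.7, 94.6 and 108 under T0901317 and 21.5, 22.3, 24.1 and 24.7 under rosiglitazone at 24 h. At 48 h it reached 372, 390.4, 395 and 449.6 CPM in DMSO and 321, 371, 447 and 483 under rosiglitazone, against 163, 187, 196 and 223 under GW3965 and 133, 173, 203 and 238 under T0901317. DDIT4, an inhibitor of mTORC1, was at 23.7, 26.0, 27.4 and 31.6 CPM in DMSO, 94.8, 107, 116 and 125 under GW3965, 93.3, 98.1, 99.5 and 103 under T0901317 and 12.9, 15.9, 17.1 and 20.7 under rosiglitazone at 24 h. At 48 h DDIT4 stood at 535 ± 21.9 CPM in DMSO (mean ± SD, n = 4), 250.3 ± 31.3 under GW3965, 257 ± 27.9 under T0901317 and 658 ± 21.0 under rosiglitazone. For both genes the 24 h libraries fell into the same order without overlap, rosiglitazone below DMSO and DMSO below both agonists. The 24 h difference between rosiglitazone and GW3965 was -1.98 (SE 0.06) for ASNS (log2, adjusted p = 3.55e-14) and -2.69 (SE 0.12) for DDIT4 (adjusted p = 6.28e-12).

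DDIT3, the transcription factor CHOP that acts when stress lasts, was at 7.26, 7.88, 9.24 and 9.26 CPM in DMSO, 13.2, 16.6, 17.3 and 17.4 under GW3965, 11.3, 13.5, 13.9 and 14.1 under T0901317 and 5.86, 6.73, 7.16 and 7.64 under rosiglitazone at 24 h, and at 122 ± 12.3, 39.0 ± 6.14, 48.3 ± 13.9 and 109.7 ± 8.80 CPM (mean ± SD, n = 4) in the same order at 48 h. Both agonists lay above DMSO at 24 h without overlap, and rosiglitazone overlapped with DMSO. SESN2, a leucine sensor that restrains mTORC1, PSAT1, an enzyme of serine synthesis, and CTH, which makes cysteine, were likewise lower with rosiglitazone than with GW3965 at 24 h, with a log2 difference of -1.42 (SE 0.11), -1.27 (SE 0.06) and -1.04 (SE 0.15) on the log2 scale (adjusted p = 9.79e-09, 5.03e-12 and 4.48e-05). Against T0901317 these 3 differences were -1.42 (SE 0.11), -1.25 (SE 0.06) and -1.12 (SE 0.15) (adjusted p = 9.73e-09, 7.46e-12 and 2.03e-05). The remaining 5 members on the list were not called between any pair of drugs at 24 h. They were MTHFD2, of mitochondrial folate metabolism (-0.37 between rosiglitazone and GW3965), PSPH, the last step of serine synthesis (-0.21), the transcription factors CEBPB (0.12) and CEBPG (-0.27), and PPP1R15A (-0.29). At 48 h PPP1R15A stood at 247 ± 17.7 CPM in DMSO, 63.7 ± 11.2 under GW3965, 54.5 ± 8.88 under T0901317 and 281 ± 12.6 under rosiglitazone, and CEBPB at 337 ± 18.0, 135 ± 12.4, 113 ± 13.6 and 469 ± 37.2 (mean ± SD, n = 4).

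**Figure D2:**
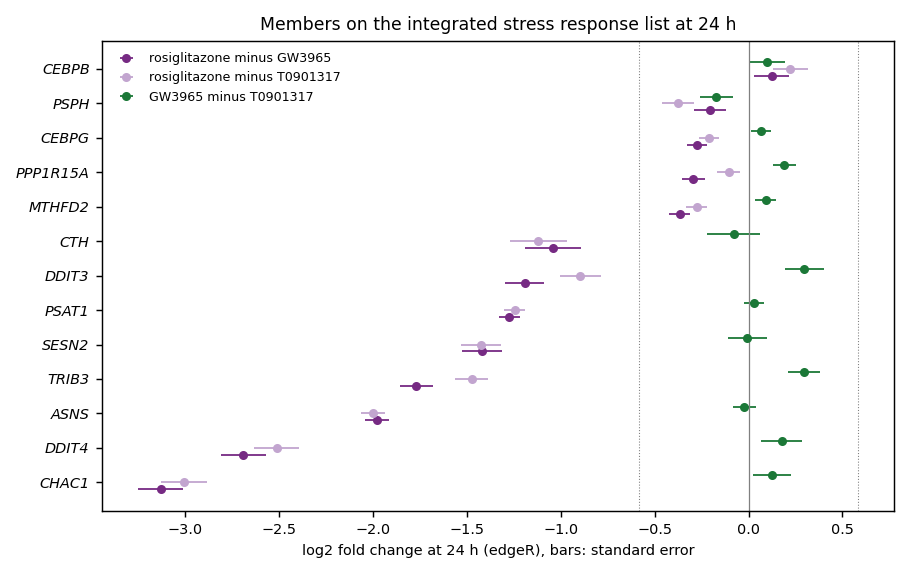
Differences at 24 h for the 13 members on the integrated stress response list, as edgeR log2 fold changes (horizontal axis, bars show the standard error, 4 libraries a group). Dotted lines mark a fold of 1.5. For 8 genes, CTH to CHAC1, both differences of rosiglitazone lie beyond the dotted line on the left, and no difference between GW3965 and T0901317 reaches either dotted line.

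Over all 200 members, 42 were lower and 1 was higher with rosiglitazone than with GW3965 at 24 h, which is 21% and 0.5% of them, where 3.23% and 1.46% of all 21781 genes tested were called. Against T0901317, 45 were lower (22.5%) and 0 were higher with rosiglitazone, beside 4.04% and 1.44% of all genes. The median difference over the members was -0.29 and -0.27 on the log2 scale, beside -0.01 and -0.02 over all genes. On the lower side were 155 and 158 members, and the share of all genes on that side was not computed. Both comparisons share the rosiglitazone libraries, and 36 members were called in both. The share of all genes called in both was not computed, so nothing is read from this overlap. RELB, an NFKB subunit, was the member higher with rosiglitazone than with GW3965, by 0.59 (SE 0.11) (adjusted p = 4.56e-04).

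Over the whole integrated stress response list, 25 of 27 genes were tested at 24 h. Of these, 11 were lower and 0 higher with rosiglitazone than with GW3965, and the same counts were obtained against T0901317, a comparison that shares the rosiglitazone libraries. In each, 8 were members and 3 were PCK2, PHGDH and HERPUD1. PCK2, which feeds the serine pathway and missed the GW3965 limit of the rule, differed by -1.17 (SE 0.10) on the log2 scale between rosiglitazone and GW3965 (adjusted p = 9.40e-08), and PHGDH, the first enzyme of serine synthesis, by -0.88 (SE 0.08) (adjusted p = 2.51e-07). HERPUD1, of endoplasmic reticulum protein degradation, differed by -0.93 (SE 0.08) (adjusted p = 3.32e-08). The median over the 25 genes was -0.43 against GW3965 and -0.45 against T0901317 on the log2 scale, where the medians over all genes were -0.01 and -0.02. ATF4 itself had means of 177, 227, 232 and 163 CPM in DMSO, GW3965, T0901317 and rosiglitazone at 24 h, and of 445, 350.4, 402 and 439 at 48 h. The chaperone gene HSPA5, of the endoplasmic reticulum branch, had means of 330.3, 422, 378 and 384 CPM at 24 h and 375, 419, 406 and 485 at 48 h. Against DMSO at 24 h, 11 of the list's genes were higher under GW3965 and 11 under T0901317, 8 of them members in each, beside 0.992% and 0.689% of all genes. With rosiglitazone 2 were lower and 1 was higher than DMSO at 24 h, beside 3.13% and 1.81%. The median difference from DMSO over the 25 genes was 0.47 under GW3965, 0.43 under T0901317 and -0.07 under rosiglitazone on the log2 scale. At 48 h, 15 were lower under GW3965 and 16 under T0901317, beside 7.78% and 7.28%, and in DMSO 22 were higher at 48 h than at 24 h, beside 10.9%. The 13 members are in each of these last 3 counts because the rule puts them there. SDF2L1 was called lower in DMSO at 48 h than at 24 h, from 14.4 to 3.75 CPM.

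The members with the largest difference at 24 h, after CHAC1, were ADM2, INHBE, DDIT4, a clone-named gene, PRSS1 and ASNS. ADM2, a peptide hormone of the calcitonin family, had means of 2.37 ± 0.293 CPM in DMSO, 8.38 ± 2.04 under GW3965, 8.34 ± 1.58 under T0901317 and 1.06 ± 0.213 under rosiglitazone (± SD, n = 4) and differed by -2.96 (SE 0.21) between rosiglitazone and GW3965 (log2, adjusted p = 5.60e-09). INHBE, an activin subunit, was near its counting limit at 24 h, with 4, 5, 0 and 2 counts in the DMSO libraries, 18, 14, 14 and 32 under GW3965, 3, 9, 12 and 8 under T0901317 and 2, 3, 1 and 2 under rosiglitazone. It differed by -2.87 (SE 0.58) between rosiglitazone and GW3965 (adjusted p = 0.00142), and its difference of -2.10 (SE 0.64) from T0901317 missed the threshold (adjusted p = 0.0221). PRSS1, which encodes a trypsinogen and has near-identical copies, so that its counts are uncertain, had 1 to 18 counts in DMSO, 46 to 61 under GW3965, 23 to 36 under T0901317 and 5 to 13 under rosiglitazone. The clone-named gene had means of 0.843 ± 0.173 CPM under GW3965, 1.05 ± 0.362 under T0901317 and 0.128 ± 0.0789 under rosiglitazone. GDF15, a stress-induced cytokine, had means of 38.3 ± 2.89, 38.6 ± 2.37, 44.9 ± 1.15 and 20.7 ± 1.16 CPM at 24 h in DMSO, GW3965, T0901317 and rosiglitazone, and was lower with rosiglitazone than with T0901317, with a log2 difference of -1.07 (SE 0.07) (adjusted p = 3.13e-09). ULBP1, a ligand of the lymphocyte receptor NKG2D, was lower with rosiglitazone than with GW3965, with a log2 difference of -0.90 (SE 0.21) (adjusted p = 0.00452), and against T0901317 the difference was -0.46 (SE 0.22) (adjusted p = 0.149).

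Drug against DMSO at 24 h is given as a description, because the DMSO libraries of that time entered the rule. With GW3965, 18 members were called higher and 1, RNF144B, lower, beside 0.992% and 0.344% of all genes. For T0901317 there were 14 higher and 0 lower, beside 0.689% and 0.0321%. Both comparisons share the DMSO libraries, and 12 members were called higher in each. They were CHAC1, DDIT4, ADM2, ASNS, TRIB3, SESN2, PSAT1, DDIT3, CTH, FAM129A, GRB10 and SH2B3. The share of all genes called in both was not computed, so nothing is read from this overlap. Rosiglitazone had 27 members lower and 1, C4orf32, higher than DMSO at 24 h, beside 3.13% and 1.81%. In 45 members every GW3965 library was above every DMSO library at 24 h and below every one at 48 h, a pattern held by 0.899% of 23140 genes, and in 51 members the same was seen with T0901317, a pattern held by 1.06%. The rule selects the members for the 48 h side of that pattern, and the same 45 and 51 members lay above DMSO at 24 h alone. On the other side, 10 members lay below every DMSO library at 24 h with GW3965 and 9 with T0901317. The shares of all genes require both sides, so they are not a fitting background for the member counts. The share of all genes on the 24 h side alone was not computed.

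**Figure D3:**
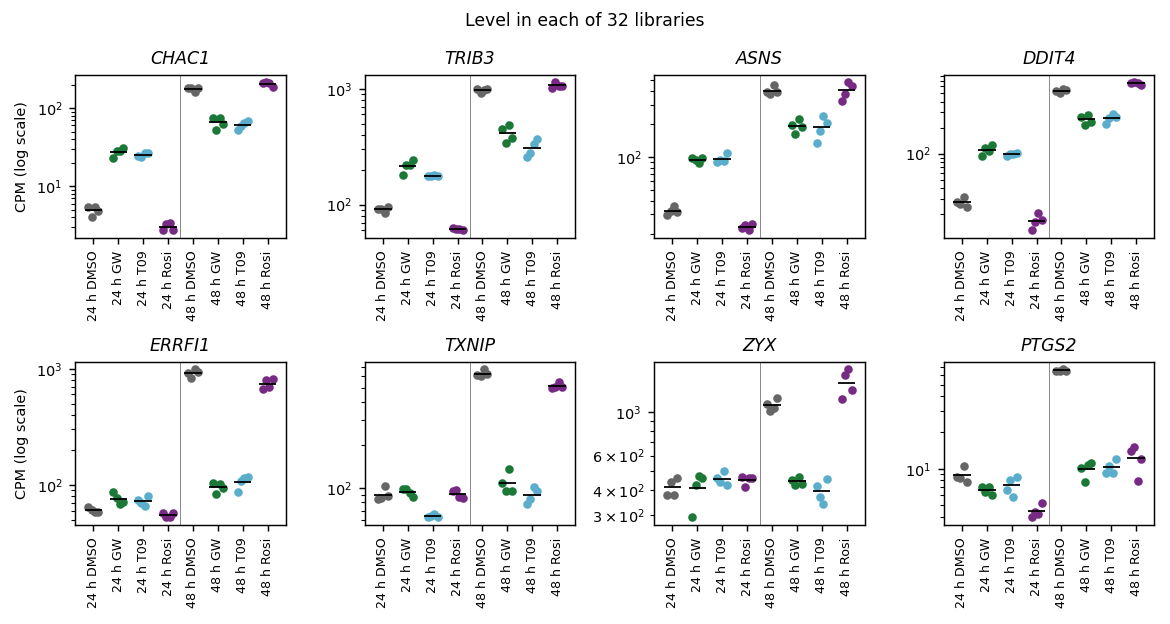
Level in CPM (vertical axis, log scale, its range differing between panels) of 8 members in each of the 32 libraries, with short lines for group means, for DMSO, GW3965 (GW), T0901317 (T09) and rosiglitazone (Rosi) at 24 h (left of the grey line) and 48 h. In CHAC1, TRIB3, ASNS and DDIT4 both agonists lie above DMSO at 24 h and below it at 48 h, where the rule requires lower means. In PTGS2 rosiglitazone lies below DMSO at both times.

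GW3965 and T0901317 are LXR agonists of different chemical structure and were compared at the same dose and time, as 1 of 3 pairs of drugs, with p-values adjusted over all genes within each pair. At 24 h, 1 member was called lower and 0 were called higher with GW3965 than with T0901317, beside 0.289% and 0.0689% of all genes. The member was NNMT, nicotinamide N-methyltransferase, at 3.20, 3.37, 3.62 and 4.56 CPM under GW3965 and 5.24, 6.07, 8.08 and 9.13 under T0901317, a difference of -0.94 (SE 0.15) (log2, adjusted p = 0.00173). The 2 groups did not overlap, and the DMSO libraries, at 4.45, 5.90, 6.13 and 6.56 CPM, overlapped with both. Over the 200 members the difference between the agonists ran from -0.94 to 0.88 on the log2 scale with a median standard error of 0.13. Its 95% interval lay within a fold of 1.5 in 156 members and within a fold of 2 in 188, and for the others it reached beyond these folds, NNMT among them.

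A further 4 members passed the adjusted p but not the fold limit, and among them were TXNIP and ARRDC4. TXNIP encodes the thioredoxin-interacting protein, which lowers glucose uptake, and ARRDC4 its close relative, and both are known to rise with glucose metabolites. TXNIP was at 87.3, 93.3, 99.1 and 99.7 CPM under GW3965, 62.9, 63.8, 64.7 and 66.3 under T0901317, 84.0, 86.4, 88.4 and 104 in DMSO and 85.2, 86.8, 95.3 and 97.4 under rosiglitazone at 24 h. The T0901317 libraries were below all others, and GW3965 minus T0901317 was 0.56 (SE 0.06) on the log2 scale (adjusted p = 2.56e-05). ARRDC4 was at 11.5, 12.2, 12.8 and 13.5 CPM under GW3965, 7.29, 7.98, 8.82 and 9.35 under T0901317, 10.3, 10.5, 10.9 and 11.2 in DMSO and 8.23, 8.57, 8.76 and 9.18 under rosiglitazone, and differed by 0.58 (SE 0.08) between the agonists (adjusted p = 2.03e-04), a fold that lay just under 1.5. The other two were AMIGO2, an adhesion molecule, with a difference of 0.32 (SE 0.06) (adjusted p = 0.00491), and H1F0, a linker histone, with -0.30 (SE 0.05) (adjusted p = 0.00443). At 48 h TXNIP had means of 628 ± 31.0 CPM in DMSO, 109.5 ± 19.5 under GW3965, 90.0 ± 11.1 under T0901317 and 515 ± 22.0 under rosiglitazone (± SD, n = 4). ARRDC4 at 48 h was at 80.6, 82.8, 84.2 and 96.3 CPM in DMSO, 8.95, 9.42, 9.57 and 12.2 under GW3965, 5.93, 6.03, 6.52 and 6.64 under T0901317 and 66.7, 70.3, 77.5 and 93.2 under rosiglitazone. Its DMSO mean was 8.57 times the GW3965 mean and 13.7 times the T0901317 mean, and from 24 to 48 h it changed by ratios of 0.802 and 0.751 with the agonists against 8.02 in DMSO.

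Ranked by the smaller of both 48 h ratios, the members with the deepest blunting were INHBE, ERRFI1, ARRDC4, NAV3, PTGS2, TXNIP, GDF15 and PRSS1. ERRFI1, a feedback inhibitor of the EGF receptor, was at 58.4, 59.0, 61.0 and 65.1 CPM in DMSO at 24 h and 837, 917, 931 and 989 at 48 h. With GW3965 it was at 67.9, 70.6, 76.7 and 87.7 CPM and then 82.8, 94.2, 103 and 105, with T0901317 at 65.7, 70.3, 74.1 and 81.1 and then 86.6, 108, 114 and 118, and with rosiglitazone at 52.5, 52.5, 57.2 and 57.6 and then 668, 698, 793 and 819. It rose 15.1-fold in DMSO, and the DMSO mean at 48 h was 9.55 times the GW3965 mean and 8.61 times the T0901317 mean. INHBE had means of 15.1 ± 0.818 CPM in DMSO, 1.73 ± 0.310 under GW3965, 1.62 ± 0.658 under T0901317 and 9.62 ± 1.85 under rosiglitazone at 48 h. GDF15 was at 667 ± 43.0, 112 ± 18.9, 121 ± 16.7 and 486 ± 74.2 CPM in the same order. NAV3, a microtubule-associated protein, had low levels throughout, 3.14 ± 0.516 CPM in DMSO against 0.421 ± 0.165 under GW3965 and 0.311 ± 0.0842 under T0901317.

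The largest rises in DMSO were those of INHBE (188-fold), PRSS1 (66.7-fold), KIAA1239 (45.2-fold), CHAC1 (35.9-fold), ADM2 (30.9-fold), the same clone-named gene (23.9-fold), ULBP1 (20.8-fold) and DDIT4 (19.7-fold). INHBE had 0 to 5, PRSS1 1 to 18 and KIAA1239 3 to 15 counts in the DMSO libraries of 24 h, so their ratios are uncertain. All 8 rose with rosiglitazone too, by 15.9 to 173 times. In the heat map of named members, 31 of 40 have a GW3965 mean and 30 a T0901317 mean above the DMSO mean at 24 h, against 11 for rosiglitazone. These 40 were picked partly by their differences between drugs at 24 h, so nothing is read from these counts. In the edgeR fit, 147 of all 200 members were on the higher side of DMSO at 24 h with GW3965. With T0901317 there were 138, and with rosiglitazone 67. The share of all genes on that side was not computed.

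**Figure D4:**
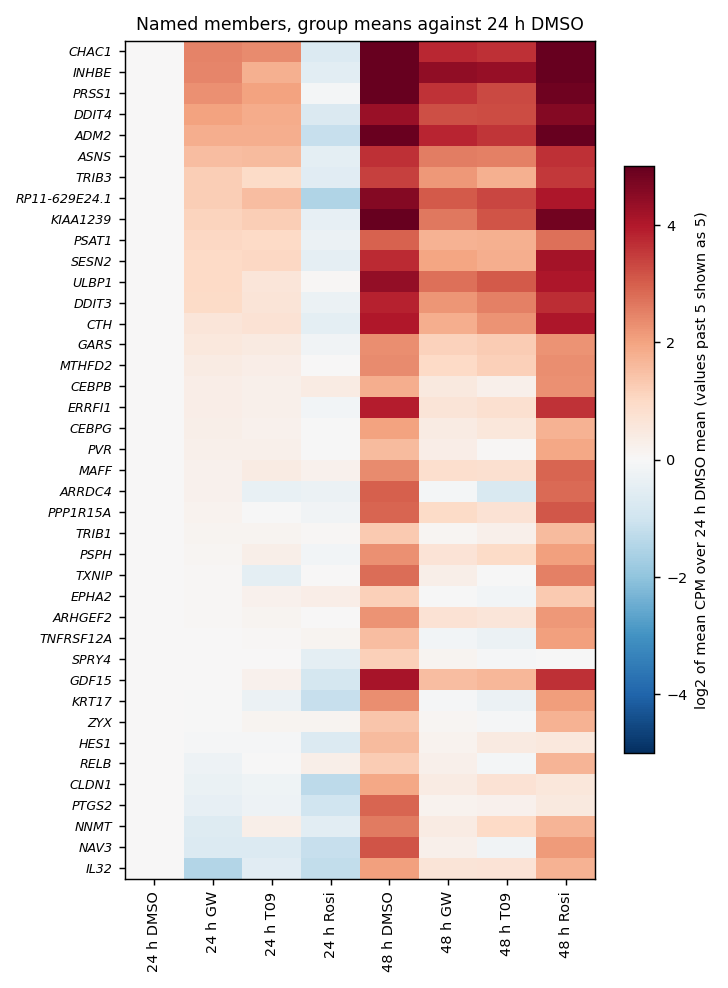
Group means of the 40 named members as log2 of CPM over the DMSO mean at 24 h (colour, limited at 5), with 1 row a gene, ordered by the GW3965 value at 24 h, and 1 column a group (GW is GW3965, T09 is T0901317 and Rosi is rosiglitazone). Rows at the top, CHAC1 to CTH, are red with both agonists already at 24 h, and all rows are red in DMSO at 48 h.

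The members that took the largest shares of counts in DMSO at 48 h, which are not levels per length, were ZYX, TRIB3, ERRFI1, EPHA2, GARS, GDF15, ARHGEF2, TXNIP, PVR and MTHFD2. ZYX, or zyxin, a focal adhesion protein, was at 378, 379.7, 441 and 464 CPM in DMSO at 24 h and 1009, 1043, 1094 and 1167 at 48 h, and with GW3965 at 292, 427, 460.1 and 472 and then 425, 429, 454 and 469. With T0901317 it was at 342, 369, 424 and 458 CPM at 48 h, and with rosiglitazone at 1165, 1288, 1528 and 1640, where the lowest library lay inside the DMSO range. EPHA2, an ephrin receptor tyrosine kinase, was at 784, 821, 833 and 853 CPM in DMSO, 338, 341, 349 and 394 under GW3965, 302, 317, 356 and 362 under T0901317 and 806, 836, 944 and 1018 under rosiglitazone at 48 h. Neither gene was called between drugs at 24 h, with 0.17 (SE 0.13) for ZYX and 0.32 (SE 0.12) for EPHA2 between rosiglitazone and GW3965 on the log2 scale (adjusted p = 0.426 and 0.0775). ARHGEF2 had means of 138 ± 4.74 CPM in DMSO at 24 h and 649 ± 43.3 at 48 h, where it was at 226 ± 28.1 under GW3965 and 210.1 ± 14.8 under T0901317. PVR, the poliovirus receptor of the nectin family, was at 594 ± 26.1 CPM in DMSO, 248 ± 19.5 under GW3965, 208 ± 11.0 under T0901317 and 754 ± 116 under rosiglitazone. GARS, the glycyl-tRNA synthetase, was lower with rosiglitazone than with GW3965 at 24 h, with a log2 difference of -0.65 (SE 0.05) (adjusted p = 4.00e-08) and was at 729 ± 34.6, 327 ± 38.4, 354 ± 55.5 and 690.5 ± 52.1 CPM at 48 h.

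On the list of AP1 and ERK output genes, 41 genes were tested at 24 h, of which 5 were lower and 2 higher with rosiglitazone than with GW3965, beside 3.23% and 1.46% of all genes, and 8 were lower and 2 higher than with T0901317, beside 4.04% and 1.44%. Among its members, KRT17, a keratin of stressed epithelium with near-identical copies, was lower, with a log2 difference of -1.11 (SE 0.13) (adjusted p = 4.09e-06), and GDF15, with a log2 difference of -0.86 (SE 0.07). TNFRSF12A, the receptor of the cytokine TWEAK, was at 286 ± 21.9 CPM in DMSO, 88.5 ± 3.05 under GW3965, 79.0 ± 3.85 under T0901317 and 400.1 ± 38.1 under rosiglitazone at 48 h. MAFF, a small bZIP factor, had 64.1 ± 6.45, 22.3 ± 2.23, 21.6 ± 1.42 and 93.1 ± 8.33 CPM, and TRIB1, a pseudokinase of the COP1 ubiquitin ligase, 365 ± 12.7, 158 ± 4.84, 176 ± 12.8 and 439 ± 43.1, in the same order. The rosiglitazone means of these 3 exceeded the DMSO means. SPRY4, a feedback inhibitor of ERK signalling, was at 111 ± 3.43 CPM in DMSO at 48 h and lower with all 3 drugs, at 52.8 ± 3.49, 46.7 ± 2.75 and 46.9 ± 9.45. IL32, a cytokine, was at 3.34, 4.43, 7.65 and 7.86 CPM in DMSO, 1.23, 1.80, 2.05 and 3.61 under GW3965, 2.09, 2.20, 2.24 and 2.34 under T0901317 and 3.05, 3.29, 5.80 and 6.55 under rosiglitazone at 48 h, with a wide spread among DMSO libraries. RELB was at 47.0 ± 1.95, 23.1 ± 2.45, 18.4 ± 2.21 and 62.9 ± 7.01 CPM, and HES1, a Notch-responsive repressor, at 69.2 ± 5.16, 26.4 ± 2.54, 31.7 ± 4.85 and 33.3 ± 6.27.

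The rule sets only an upper limit for rosiglitazone, and the members differed widely in their rosiglitazone level at 48 h. The ratio of the rosiglitazone to the DMSO mean ran from 0.106 to 1.46 with a median of 1.01, and 16 members were at 0.5 or below. By the call rule, 21 members were lower and 15 higher than DMSO, beside 7.40% and 4.79% of all genes. Nothing is read from these counts, because the rule used both means and kept their CPM ratio below 1.5. With a fold limit of 1.5, a member could be called higher only where the scaling moved its fold away from that ratio. With scaling by library size alone, which moved the median of all genes to -0.19 on the log2 scale, 24 were lower and 0 higher. That fold is close to the CPM ratio, so the 0 follows from the rule. With no fold limit 22 were lower and 53 higher, and with a limit of 2 there were 12 lower and 0 higher. The number higher was 8 without DMSO replicate 2, 7 without rosiglitazone replicate 3 and 32 without rosiglitazone replicate 1, where 18 to 20 were lower. The following genes were picked from the low end after their values had been seen. PTGS2, the inducible cyclooxygenase of prostaglandin synthesis, was at 64.7, 65.0, 65.0 and 67.0 CPM in DMSO, 7.83, 10.1, 10.7 and 11.1 under GW3965, 9.28, 9.30, 10.6 and 12.0 under T0901317 and 7.93, 12.1, 14.1 and 15.1 under rosiglitazone at 48 h. All 3 drugs were thus far below DMSO, with overlapping libraries. At 24 h PTGS2 was at 3.94, 4.23, 4.39 and 5.18 CPM under rosiglitazone and 5.85, 6.71, 8.08 and 8.53 under T0901317, a difference of -0.66 (SE 0.12) (log2, adjusted p = 3.84e-04).

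SPINK5, a serine protease inhibitor of barrier epithelium, was at 4.55, 5.66, 6.25 and 6.78 CPM in DMSO and 0.418, 0.451, 0.695 and 0.904 under rosiglitazone at 48 h, and at 24 h at 1.05, 1.14, 1.34 and 1.47 under GW3965 and 0.295, 0.300, 0.353 and 0.448 under rosiglitazone, without overlap. The 24 h difference was -1.78 (SE 0.21) (adjusted p = 5.26e-06). NLRP3, the inflammasome sensor, was at 0.351, 0.521, 0.570 and 0.652 CPM under GW3965 and 0.0492, 0.168, 0.176 and 0.240 under rosiglitazone at 24 h, a difference of -1.68 (SE 0.36) (adjusted p = 0.00221), and at 3.06 ± 0.645 in DMSO and 0.646 ± 0.355 under rosiglitazone at 48 h. CLDN1, a tight junction claudin, had means of 96.7 ± 3.19 CPM in DMSO, 34.4 ± 6.07 under GW3965, 42.2 ± 7.40 under T0901317 and 37.9 ± 5.34 under rosiglitazone at 48 h, and was lower with rosiglitazone than with GW3965 at 24 h, with a log2 difference of -0.95 (SE 0.08) (adjusted p = 2.29e-08). RASD1, a small GTPase, and DEPTOR, an inhibitor of mTOR, had ratios of rosiglitazone to DMSO of 0.152 and 0.248 at 48 h and differences from GW3965 of -1.17 (SE 0.16) and -0.77 (SE 0.15) at 24 h (adjusted p = 2.46e-05 and 0.00117). Of the 36 members lower with rosiglitazone than with both agonists at 24 h, 9 were among the 21 called lower than DMSO with rosiglitazone at 48 h. None of these 9 is on the stress response list. The same overlap over all genes was not computed, so these counts are a description.

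Members of known function outside the lists were picked by role after their values had been seen, and their 48 h means are given in the order DMSO, GW3965, T0901317 and rosiglitazone. Among genes of cell death and survival, MCL1, an antiapoptotic protein, was at 366 ± 16.9, 151 ± 4.95, 157 ± 10.7 and 337 ± 8.15 CPM, and the death receptor TNFRSF10B at 98.3 ± 4.27, 39.2 ± 3.11, 41.0 ± 2.26 and 96.6 ± 3.74. GADD45A, of the growth arrest response, was at 98.4 ± 9.70, 24.0 ± 3.24, 27.4 ± 3.03 and 119.8 ± 7.15 CPM, and CDKN2B, an inhibitor of cyclin D kinases, at 39.0 ± 2.78, 9.07 ± 0.827, 9.20 ± 1.12 and 35.4 ± 7.05. NFE2L2, the NRF2 factor of the oxidative stress response, was at 214 ± 7.48, 77.7 ± 2.57, 87.7 ± 7.01 and 207 ± 12.3 CPM. The agonists lay below DMSO in all 5 as chosen, whereas in CPM the rosiglitazone means stood on either side of it. Scaling by library size alone, as in CPM, put the median of all genes at -0.19 (log2) for rosiglitazone against DMSO at 48 h. With TMM scaling it was -0.01, so no side is read from small CPM differences. None of these 5 genes was called between any pair of drugs at 24 h. The LIM domain proteins of the actin cytoskeleton FHL2 and TES had 106 ± 8.20, 38.3 ± 2.03, 42.8 ± 4.98 and 127 ± 13.0 CPM and 232 ± 13.3, 93.4 ± 6.65, 102 ± 14.7 and 258 ± 32.3 CPM. ERN1, the endoplasmic reticulum stress sensor IRE1, was at 54.9 ± 1.24, 16.6 ± 4.91, 16.4 ± 3.26 and 43.1 ± 3.60 CPM. HKDC1, a hexokinase family member, was at 114 ± 11.8, 51.6 ± 8.01, 47.8 ± 6.07 and 113 ± 29.4 CPM and was lower with rosiglitazone than with GW3965 at 24 h, with a log2 difference of -1.19 (SE 0.08) (adjusted p = 5.23e-09).

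Several members share a locus and are not independent measurements. SNHG1, a host gene of small nucleolar RNAs, was at 317 CPM in DMSO, 130.3 under GW3965, 133 under T0901317 and 349 under rosiglitazone at 48 h, and SNORD22, SNORD27, SNORD28, SNORD29, SNORD30 and SNORD31 overlap it in RefSeq. SNORD29 was at 6.56 ± 0.805, 2.31 ± 0.389, 2.25 ± 0.382 and 7.38 ± 0.882 CPM, so that DMSO over GW3965 was 2.84 for it and 2.44 for SNHG1. SNORD63 overlaps HSPA9, a mitochondrial chaperone, and PLK3 overlaps TCTEX1D4. INHBE and GLI1 stand close together, with 1 other annotated gene between them. GLI1, a Hedgehog effector, was lower with rosiglitazone than with GW3965 at 24 h, with a log2 difference of -0.92 (SE 0.13) (adjusted p = 4.12e-05). MAP1LC3B and MAP1LC3B2 are near-identical copies, and 41 members, all but GARS with clone-based names, matched no RefSeq gene. Whether counting used the strand is not given in the sources used here, so that overlapping and antisense genes cannot be told apart.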

How the data were processed

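RNA-seq of HT29 cells came as 2 deposited tables of counts, 1 for each time, in which the authors had counted reads per gene without normalization. The submitters' processing notes name TopHat, Cufflinks and hg19. Which counting program was used, and whether by strand, is not given in the sources used here. Receptor peak lists were not used here, because no gene positions of their build were at hand.

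CPM was each count over its library total. Differences were fitted with edgeR 4.0.16 in R 4.3.3 (TMM scaling, filterByExpr, quasi-likelihood test, Benjamini-Hochberg adjustment over all genes tested), with 16 libraries for a comparison within a time (21781 genes at 24 h and 22470 at 48 h) and all 32 for the comparison between times (23140 genes). All 200 members passed the filter. Calls required an adjusted p below 0.01 together with a change of 1.5 times or more. DESeq2 1.42.0, other scalings, filters and fold limits, a replicate block and leaving out single libraries were alternatives. The fits were tested on simulated data.

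The members and lists were chosen with earlier results of these data known. Members were named where they were among the 10 with the highest level in DMSO at 48 h, the 8 with the deepest blunting, the 8 with the largest rise, the 6 with the largest difference called between drugs at 24 h, on a list, or beside a threshold of the rule. Any other gene was named with its values already seen, also where its paragraph does not say so.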

Additional observations from a re-analysis of the deposited data

Results flagged for a closer look

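Among 16 quantities, the 15 members shown by library and the summed level, in 8 groups of 4 libraries, 128 checks for a library far from the others of its group gave 5 hits, and chance gives about 1 in 20. CHAC1 was at 162 CPM in the lowest DMSO library of 48 h, where the others lay at 180.4 to 182 CPM. ZYX was at 418 CPM in the lowest rosiglitazone library of 24 h and at 462 to 467 CPM in the others. NNMT was at 20.3 CPM in the highest rosiglitazone library of 48 h and at 18.3 to 18.5 CPM in the others. PTGS2 was at 67.0 CPM in the highest DMSO library of 48 h and at 64.7 to 65.0 CPM in the others. NLRP3 was at 4.02 CPM in the highest DMSO library of 48 h and at 2.67 to 2.88 CPM in the others.

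In 45 members every GW3965 library was above every DMSO library at 24 h and below every one at 48 h, and in 51 members the same was seen with T0901317. The difference between the times was not tested, and its 48 h side is fixed by the choice of members. At 24 h, 10 members lay below every DMSO library with GW3965 and 9 with T0901317. The share of all genes on either 24 h side alone was not computed, so nothing is read from these counts.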

How the results depend on the processing

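The side on which most called members lay did not change in any comparison of rosiglitazone with an LXR agonist under another scaling, filter, tool, fold limit or left-out library. Scaling by library size alone moved the rosiglitazone split at 48 h from 15 higher and 21 lower to 0 and 24. The fold limit also moved it (0 and 12 at 2, 53 and 22 with none). The rule keeps the CPM ratio below 1.5, which sets the 0 higher with library size alone and bounds the higher side at 2. With a fold limit of 2 in place of 1.5, 26 members were called between rosiglitazone and GW3965 (from 43), 24 between rosiglitazone and T0901317 (from 45), 0 between GW3965 and T0901317 (from 1), and, against DMSO, 11 with GW3965 (from 19), 9 with T0901317 (from 14) and 13 with rosiglitazone at 24 h (from 28) and 12 with rosiglitazone at 48 h (from 36). With no fold limit the counts against DMSO were 32, 27, 43 and 75 in the same order, and 5 between both agonists. The agonist pair also gave 2 with relative log expression scaling, 2 with no filter on low counts and 2 with DESeq2. Leaving out 1 library gave 1 to 3 for that pair, with 3 without GW3965 replicate 4 and 2 without GW3965 replicates 1 or 2 or T0901317 replicates 1, 3 or 4, and otherwise 38 to 47 and 37 to 42 between rosiglitazone and the agonists, 15 to 21, 10 to 13 and 23 to 29 against DMSO at 24 h, and 27 to 50 for rosiglitazone at 48 h. The cause of the other moves was not tested.

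The rule itself gave 184 genes with TMM-scaled values, 174 of them among the 200, and 174 to 229 over all settings, 185 to 215 when 1 library was left out. The main fits did not pair libraries by replicate number. The correlation of same-numbered deviations ran from -0.41 to 0.49 at 24 h and exceeded 0.1 in 5 of 24 pairs. At 48 h it ran from -0.19 to 0.33 and exceeded 0.1 in 4 of 24. It was not computed for libraries of different numbers, so these values cannot decide whether the numbers pair libraries. With the replicate number as a block, the counts were 2 for the agonist pair and 45 and 44 for rosiglitazone against GW3965 and T0901317. The count of members with a receptor peak near the start and its alternatives were not run, since peak and gene positions were on different builds. Members with few counts at 24 h, such as INHBE, are limited by depth.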
